A study of Mus musculus with 12 samples.

Results

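The collagen chain genes encode the polypeptide chains that wind into the triple helices of collagen. They were taken as the protein-coding genes whose symbol is Col, a number, the letter a and a number, which gave 44 of the 54532 genes in the table. Of these 44 genes, 34 had enough counts to be tested. They were grouped into 11 fibrillar chains, 6 basement membrane chains, 9 fibril-associated chains and 18 other chains.

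Messenger RNA was sequenced from mouse lung tissue, in 6 samples labelled ALI (acute lung injury) and 6 labelled control. The series text ties the injury to drowning in seawater, and its title ties it to the intestinal flora. Strain, age and the time from injury to collection are not given in the sources used here. No label names the animal behind a sample, and p-values then cover sample-to-sample spread that could be technical. Libraries held 15707937 to 19706494 counts.

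Fibrillar collagens such as types I, III and V are secreted as procollagens, trimmed at their ends and assembled into the fibrils that carry tension in vessel walls, airways and alveolar septa. Type IV collagen forms the sheet-like network of basement membranes, including the thin layer shared by alveolar epithelium and capillary. Fibril-associated chains decorate the surface of fibrils, and the remaining families form beaded filaments, anchoring fibrils or short-chain networks, or span the cell membrane. In the lung, fibroblasts are the best known source of fibrillar chains, while endothelium, epithelium and mesenchyme all contribute to type IV.

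One control library stood apart. Control 5 held 269 CPM (counts scaled to library size by TMM) of the adipocyte gene Adipoq and 2858 CPM of the brown fat gene Ucp1, and the other 5 controls held at most 1.84 CPM of Adipoq. Its collagen level was low: collagen chains took 0.309% of all its counts, against 0.681% to 0.768% in the other 5 controls. Among the ALI libraries, ALI 2 held 59.2 CPM of Adipoq. What part these transcripts have in the collagen values was not tested. For many chains and lists, but not all, results are given with and without control 5. Genes of lung epithelium were abundant in all libraries, with a summed level of 8 alveolar type 2 cell markers of 20022 to 25290 CPM in ALI and 21776 to 28872 CPM in control.

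The collagen pool of injured lungs was larger and shifted towards fibrillar chains. Collagen chains took 1.07% ± 0.0676 of all counts in ALI and 0.646% ± 0.168 in controls (mean ± SD, n = 6 each, as throughout). The lowest ALI library had 0.967% and the highest control 0.768%, so the groups did not overlap. The difference in means was 0.428 percentage points, and 0.360 without control 5. Fibrillar chains made up 50.3% ± 1.62 of collagen counts in ALI lungs and 29.0% ± 1.68 in controls, and basement membrane chains 34.8% ± 1.92 in ALI lungs and 49.1% ± 2.41 in controls. These compositions did not overlap between groups for any of the 4 classes, and control 5, at 31.3% fibrillar, lay at the upper end of the controls but far below the lowest ALI library at 48.9%. Shares within the collagen pool sum to 100%, so a larger share of one class lowers the others.

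Of the 34 tested chains, 11 were called higher and 5 lower in ALI at an adjusted p under 0.05 (edgeR quasi-likelihood test, Benjamini-Hochberg adjustment over 16185 genes). Over all tested genes, 18.9% were called higher and 17.7% lower. The median log2 fold change was 0.14 over the collagen chains and -0.06 over all tested genes. By class, 7 of 9 tested fibrillar chains were called higher and 1 lower, with a median of 1.48. Among the 6 basement membrane chains 1 was higher and 2 were lower, with a median of -0.33. None of the 4 tested fibril-associated chains was called, with a median of -0.21, and of 15 other chains 3 were higher and 2 lower, with a median of 0.11. All 6 ALI values lay above all 6 control values for 10 tested chains and below them for 3, against 13.1% and 8.25% of all tested genes. Without control 5, 11 chains were called higher and 9 lower, beside 23.2% and 21.0% of the 16366 genes then tested, and the median log2 fold change was 0.02 over the collagen chains and 0.00 over all tested genes. The class medians without control 5 were 1.44 for fibrillar, -0.47 for basement membrane, -0.26 for fibril-associated and 0.01 for other chains. The 4 chains added to the lower calls were Col4a4, Col4a5, Col12a1 and Col6a4.

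**Figure D1:**
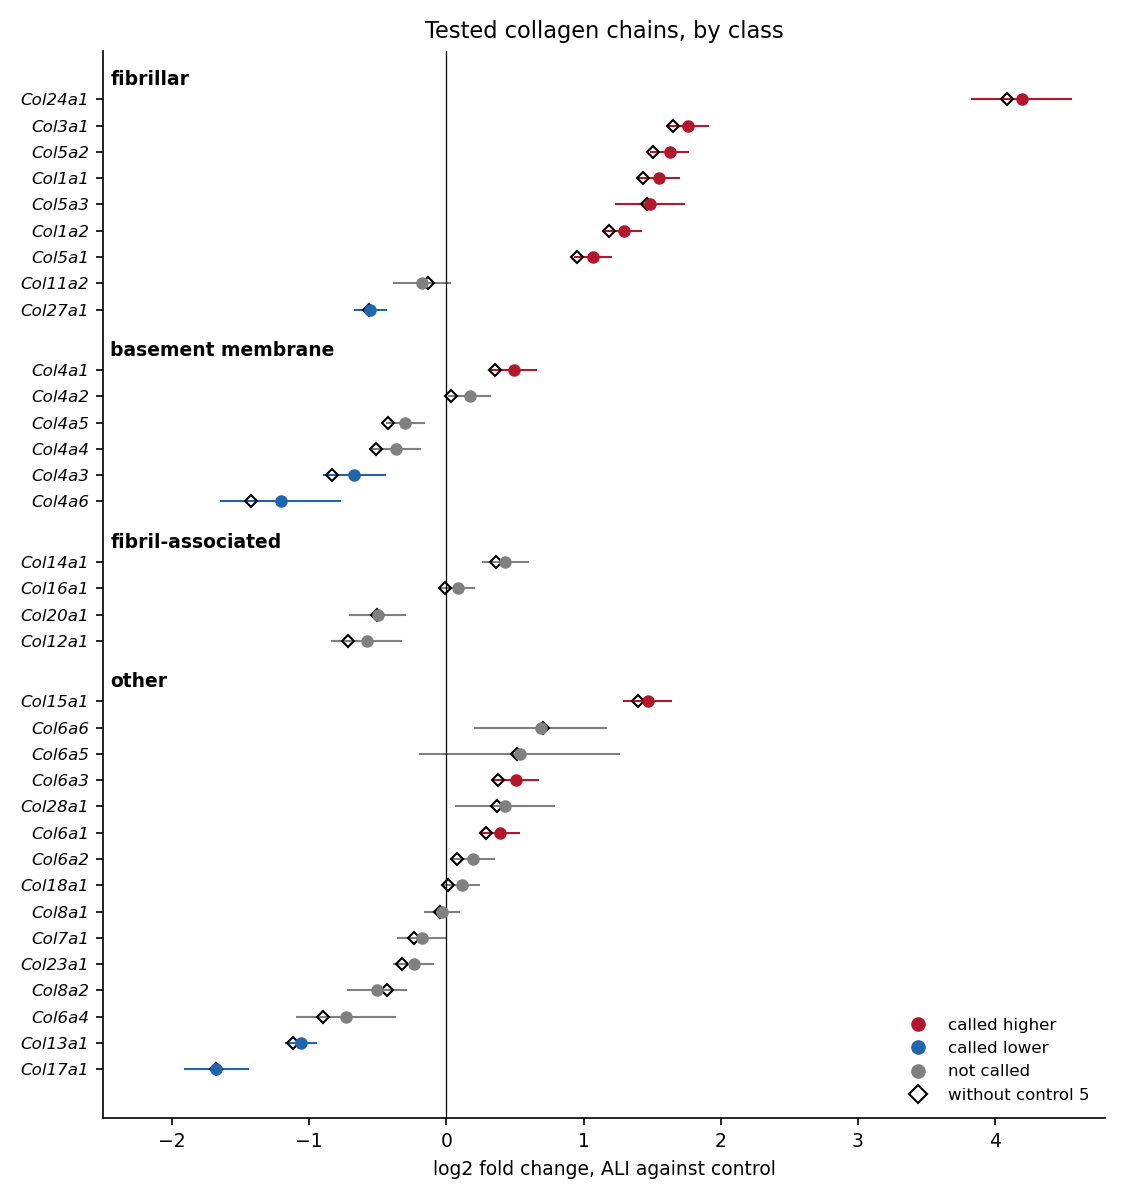
Log2 fold change of each of the 34 tested collagen chains, ALI against control, grouped by class. Circles with bars are the estimate ± SE over all 12 samples, coloured by call, and open diamonds are the estimates without control 5. The 7 fibrillar chains called higher lie to the right of every other chain except Col15a1.

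The type I and type III chains, which build the bulk of the interstitial fibrils, showed large and uniform differences. Col3a1, the only chain of type III collagen and prominent in the fine fibres of distensible tissue, ranged from 1859 to 2324 CPM (median 2059) in ALI lungs and from 364 to 756 CPM (median 616) in control lungs. Col1a1 ranged from 1196 to 1693 CPM (median 1286) in ALI and from 278 to 571 CPM (median 500.4) in control. Col1a2, the partner chain of Col1a1 in type I collagen, ranged from 1267 to 1614 CPM (median 1461) in ALI and from 373 to 728 CPM (median 626) in control. In all 3 genes every ALI library lay above every control library, with control 5 the lowest control. Col3a1 rose by a log2 fold change of 1.76 ± 0.15 (SE; adjusted p = 7.25e-07), Col1a1 by 1.55 ± 0.16 (adjusted p = 2.95e-06) and Col1a2 by 1.29 ± 0.14 (adjusted p = 4.92e-06). Without control 5 the log2 fold changes were 1.65 for Col3a1, 1.44 for Col1a1 and 1.19 for Col1a2, and all 3 stayed called.

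**Figure D2:**
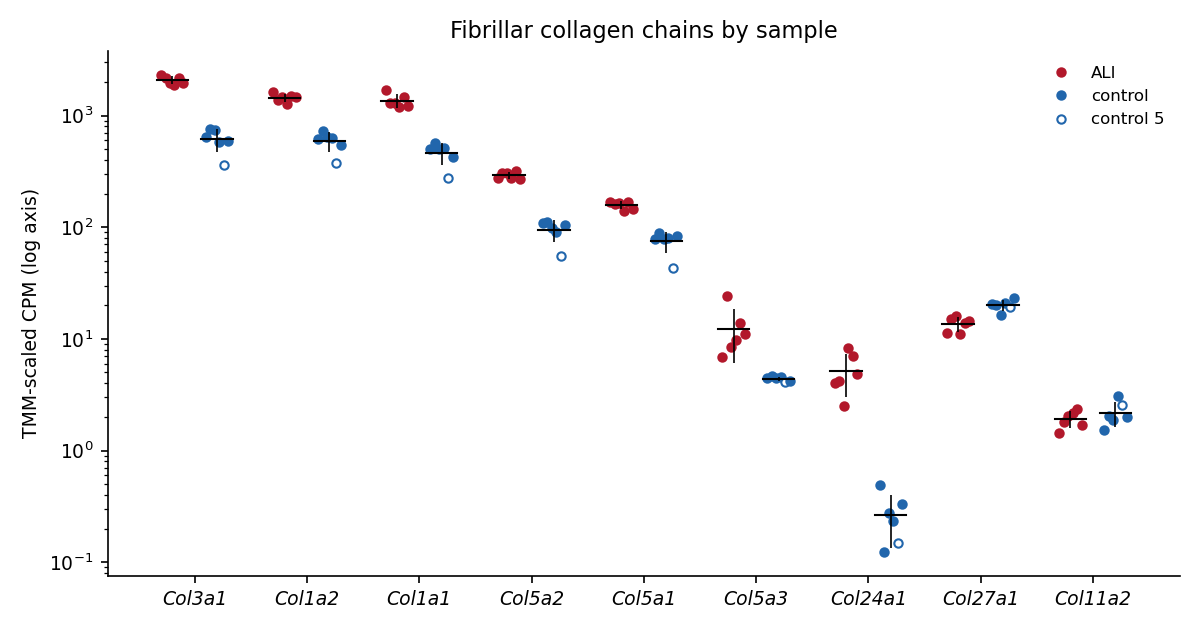
Level of fibrillar collagen chains in each sample, in CPM on a log scale, with ALI left of control. Points are samples, horizontal bars are means with SD, and the open circle is control 5. For the 7 chains called higher, the ALI points lie above all control points, and for Col27a1 they lie below.

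All 3 chains of type V collagen, which co-assembles with type I and limits fibril width, rose. Col5a2 had 292 ± 20.3 CPM in ALI lungs and 94.6 ± 20.8 CPM in control lungs, a log2 fold change of 1.63 ± 0.14 (adjusted p = 7.86e-07). Col5a1 had 158 ± 12.6 CPM in ALI and 75.2 ± 16.2 CPM in control, a log2 fold change of 1.07 ± 0.14 (adjusted p = 3.51e-05). Neither gene's groups overlapped, and the lowest control was again control 5, at 54.9 CPM for Col5a2 and 43.1 CPM for Col5a1. Leaving out control 5 gave log2 fold changes of 1.51 for Col5a2 and 0.95 for Col5a1, both still called. The scarcer Col5a3 chain ranged from 6.87 to 24.0 CPM (median 10.4) in ALI and from 4.12 to 4.65 CPM (median 4.43) in control. Its log2 fold change was 1.48 ± 0.26 (adjusted p = 0.000369), and the highest value belonged to ALI 2, the ALI library with adipocyte transcripts. Without ALI 2 and control 5 Col5a3 remained called, with a log2 fold change of 1.16 (adjusted p = 6.78e-05).

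The largest relative rise among the tested chains was in Col24a1, a minor fibrillar chain described in developing bone and cornea of the mouse. It ranged from 2.51 to 8.27 CPM (median 4.50) in ALI and from 0.124 to 0.487 CPM (median 0.254) in control. Over the groups this was 537 counts in ALI and 28 in control, with a fold change of 18.3 (log2 4.19 ± 0.37, adjusted p = 8.25e-07). All ALI libraries exceeded all controls, and without control 5 the log2 fold change was 4.09. Col11a1, a type XI chain best known from cartilage, had too few counts for the test, with 53 counts in ALI and 2 in control. The ratio of these sums was 25.1 at equal library size, with an exact 95% interval of 6.62 to 213 that covers counting error only. Every ALI library had at least 2 counts of Col11a1 and no control more than 1. Without the filter on low counts Col11a1 had an adjusted p of 0.000448.

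The fibrillar class was not uniform. Col27a1, a chain of cartilage and other developing tissues, was lower in ALI, at 10.96 to 16.1 CPM (median 14.2) in ALI against 16.2 to 23.2 CPM (median 20.4) in control. Its log2 fold change was -0.55 ± 0.12 (adjusted p = 0.00243) and the groups did not overlap. Col11a2 had 1.91 ± 0.335 CPM in ALI and 2.17 ± 0.546 CPM in control and did not pass the test (adjusted p = 0.545). Col2a1, the main cartilage chain, had 13 counts in ALI and 13 in control and was not tested. Cartilage markers gave little signal in either group: Matn1 was at 0 in all libraries and the summed level of 10 cartilage markers was 15.3 to 31.1 CPM in ALI and 54.4 to 66.6 CPM in control, most of it from Cytl1.

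The stretches just upstream of 4 fibrillar genes that rose are shown as the start regions of chains that share a direction of change. They are the 250 bases before the RefSeq start on GRCm38.p6, on the gene's own strand, 5′ to 3′, at chr1:45311288-45311537 (forward) for Col3a1, chr2:27886175-27886424 (forward) for Col5a1, chr9:20815068-20815317 (reverse) for Col5a3 and chr3:145292222-145292471 (forward) for Col24a1. Capitals mark the string TATAAA, the CCAAT string and the GC-rich string GGGCGG, each searched on both strands.
Col3a1: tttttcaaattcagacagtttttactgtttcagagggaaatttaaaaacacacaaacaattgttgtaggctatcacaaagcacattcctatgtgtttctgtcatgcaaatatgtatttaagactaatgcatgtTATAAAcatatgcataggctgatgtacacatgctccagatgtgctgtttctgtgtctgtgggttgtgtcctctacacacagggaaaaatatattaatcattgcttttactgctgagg
Col5a1: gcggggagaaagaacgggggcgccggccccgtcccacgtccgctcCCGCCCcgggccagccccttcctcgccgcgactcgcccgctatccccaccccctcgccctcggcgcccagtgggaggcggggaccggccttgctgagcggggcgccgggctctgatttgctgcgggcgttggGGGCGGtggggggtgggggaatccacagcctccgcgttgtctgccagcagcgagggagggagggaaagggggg
Col5a3: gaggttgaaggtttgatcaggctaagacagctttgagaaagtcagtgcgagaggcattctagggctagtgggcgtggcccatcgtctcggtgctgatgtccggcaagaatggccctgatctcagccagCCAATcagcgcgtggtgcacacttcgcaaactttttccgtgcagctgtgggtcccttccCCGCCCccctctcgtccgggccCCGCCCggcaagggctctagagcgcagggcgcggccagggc
Col24a1: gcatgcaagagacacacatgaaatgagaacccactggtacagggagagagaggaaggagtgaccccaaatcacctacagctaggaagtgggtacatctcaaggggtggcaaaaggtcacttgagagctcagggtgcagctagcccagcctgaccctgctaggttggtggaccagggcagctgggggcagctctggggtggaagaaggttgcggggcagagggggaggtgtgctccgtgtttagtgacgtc
Col3a1 held a TATAAA beginning 117 bases before the start, a match found in 12.4% of 32851 mouse promoters of the same window. Col5a1 held GGGCGG at 73 bases and its reverse complement at 205 bases before the start, and Col5a3 held the CCAAT string at 122 bases and CCGCCC at 63 and 41 bases before it. CCAAT occurred in 33.8% and GGGCGG in 32.7% of all promoters. Col24a1 held none of the 3 strings in this window. Of the 35 collagen chain genes with a promoter entry, 13 held the CCAAT string, 5 the TATAAA string and 21 the GGGCGG string. The counts are per gene, with a match in any of its entries, while the percentages are per promoter entry. These matches describe letters in a window and were not tested for binding. Col3a1 (chr1:45311538-45349706, forward strand, GENCODE M21 on GRCm38) and Col5a2 (chr1:45374321-45503282, reverse strand) lie end to end, 24614 bases apart, and both rose.

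Beside the fibrillar chains, markers of the cells that make them were called in both directions. The shares over all tested genes were 18.9% higher and 17.7% lower. Of 14 alveolar and adventitial fibroblast markers, 2 were called higher and 8 lower in ALI, and their summed level was 2416 to 4261 CPM in ALI against 5640 to 6723 CPM in control. Of 10 myofibroblast markers 5 were higher and 1 lower, with a summed level of 2436 to 3245 CPM in ALI and 1206 to 1828 CPM in control. Fn1 alone averaged 1710 CPM in ALI and 692 CPM in control. Tnc and Fn1 were called higher, and the 1 lower call was Acta2, an actin of smooth muscle and of contractile myofibroblasts. It had 115 to 218 CPM in ALI and 175 to 274 CPM in control, with overlap. The highest Acta2 value of the controls was control 5, and without that library 5 genes of the list were higher and 0 lower. Postn had 350 CPM in ALI and 374 CPM in control and Cthrc1 6.08 CPM in ALI and 5.67 CPM in control. Neither was called. Smooth muscle and pericyte markers, 10 in all, held 0 higher and 8 lower calls, with the same counts without control 5. Their summed level was 683 to 940 CPM in ALI and 1054 to 1379 CPM in control. In bulk tissue, fewer cells of a type and less RNA per cell cannot be told apart, nor can more cells and more RNA per cell. The part of cell composition in the collagen differences was not tested.

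Among the type IV chains, Col4a1 was called higher and Col4a3 and Col4a6 lower. Col4a1, which with Col4a2 forms the network found in nearly all basement membranes, ranged from 1897 to 2300 CPM (median 1961) in ALI and from 735 to 1769 CPM (median 1479) in control. The groups did not overlap, and the log2 fold change was 0.49 ± 0.17 (adjusted p = 0.0363). The control value of 735 CPM was control 5, and without it the log2 fold change of Col4a1 was 0.35 (adjusted p = 0.00435). The call for Col4a1 was lost on leaving out any one of ALI 1, 2, 4, 5 and 6 or control 1, 4 and 6, with adjusted p up to 0.0768. Upper-quartile scaling, library size alone and a block for replicate number lost the Col4a1 call as well. Col4a2 ranged from 1094 to 1295 CPM (median 1150) in ALI and from 547 to 1233 CPM (median 1115) in control, and was not called (log2 fold change 0.17 ± 0.16, adjusted p = 0.435). Without control 5 the log2 fold change of Col4a2 was 0.04.

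Col4a3, Col4a4 and Col4a5, the chains of the specialised network of alveolar and glomerular basement membranes, had lower means in ALI. Col4a3 ranged from 164 to 277 CPM (median 203) in ALI and from 138 to 443 CPM (median 359) in control, a log2 fold change of -0.67 ± 0.23 (adjusted p = 0.0352). Col4a4 had 165 ± 13.2 CPM in ALI and 213 ± 63.2 CPM in control, and Col4a5 127 ± 7.0 CPM in ALI and 156 ± 35.8 CPM in control. Neither Col4a4 (adjusted p = 0.130) nor Col4a5 (adjusted p = 0.120) was called over all 12 samples. Control 5 held the lowest control value of each, and without it the log2 fold changes were -0.83 for Col4a3 (adjusted p = 0.000192), -0.51 for Col4a4 (adjusted p = 0.000438) and -0.42 for Col4a5 (adjusted p = 0.000147). The other 5 controls lay above every ALI library for all 3 chains, by a margin that was small for Col4a3 (highest ALI value 277 CPM, lowest of these controls 278 CPM). The scarce Col4a6 chain, found in some epithelial and smooth muscle basement membranes, had 0.930 ± 0.383 CPM in ALI and 2.16 ± 1.02 CPM in control (log2 fold change -1.21 ± 0.44, adjusted p = 0.0451). Without control 5 the log2 fold change of Col4a6 was -1.43 (adjusted p = 0.00171). With all 12 samples as the base, the Col4a3 call was lost in 9 and the Col4a6 call in 10 of the 12 fits that leave out 1 library. For Col4a3 the exceptions were ALI 1 and controls 3 and 5, and for Col4a6 ALI 3 and control 5. Both calls were also lost with library size alone and with the block for replicate number. The Col4a3 call was lost without the filter on low counts too.

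**Figure D3:**
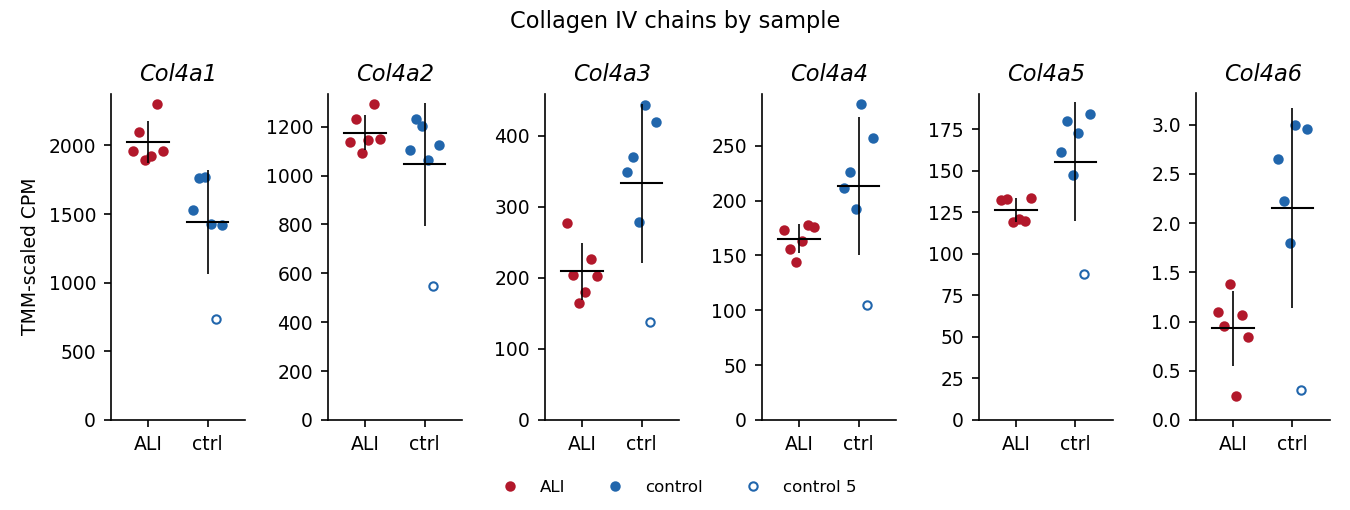
Level of the 6 type IV collagen chains in each sample, in CPM on linear axes from 0, with ALI left of control. Points are samples, horizontal bars are means with SD, and the open circle is control 5, the lowest control in all 6 panels. Col4a1 shows no overlap, and Col4a3 to Col4a6 have lower ALI means with overlap.

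The type IV genes sit in head-to-head pairs, and levels were compared within a pair. Col4a1 (chr8:11198423-11312826, reverse strand) and Col4a2 (chr8:11312805-11449287, forward strand) overlap by 22 bases at their starts in GENCODE M21. The ratio of Col4a1 to Col4a2, each in CPM per kb of deposited gene length, ran from 1.49 to 1.58 (median 1.52) in ALI and from 1.12 to 1.3 (median 1.21) in control. These ratios did not overlap, and control 5 at 1.19 lay inside the range of the other controls. Col4a4 (chr1:82448423-82586849, reverse strand) and Col4a3 (chr1:82586921-82722059, forward strand) start 71 bases apart, and the Col4a3 to Col4a4 ratio of 1.34 ± 0.196 in ALI and 1.64 ± 0.139 in control overlapped. Col4a6 and Col4a5 start 1308 bases apart on chromosome X. The whole stretch between the Col4a4 and Col4a3 starts, chr1:82586850-82586920 on GRCm38.p6 from RefSeq, is shown because 1 short region precedes both genes. It is read on the reverse strand, that of Col4a4, and holds none of the same 3 strings on either strand, so no letters are in capitals.
Col4a4-Col4a3: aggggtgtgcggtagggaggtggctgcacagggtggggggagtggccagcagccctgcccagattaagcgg

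Epithelial and endothelial cells lie on these membranes, and most of their marker lists held more lower than higher calls. All 10 endothelial markers were called lower, with a summed level of 2628 to 3626 CPM in ALI and 4570 to 6655 CPM in control, and 9 of 10 alveolar type 1 cell markers were lower, at 4554 to 5596 CPM in ALI and 6611 to 10068 CPM in control. Of 8 alveolar type 2 cell markers 3 were higher and 1 lower, but their summed level overlapped (20022 to 25290 CPM in ALI, 21776 to 28872 CPM in control). Of 6 tested airway epithelium markers 1 was higher and 2 were lower. The summed level of all 8 airway markers was 2121 to 5509 CPM in ALI and 9812 to 26164 CPM in control. Its highest control value was control 5. The part of these cell types in the type IV values was not tested. Of 21 tested laminin, nidogen and related basement membrane genes 3 were higher and 4 lower, close to the 18.9% and 17.7% over all tested genes, with a median of -0.00. Lama1, a laminin chain of embryonic basement membranes, had 2.48 ± 0.478 CPM in ALI and 0.335 ± 0.126 CPM in control (log2 fold change 2.86 ± 0.27, adjusted p = 1.55e-06). Frem1, which acts in epithelial attachment during development, had 30.7 CPM in ALI and 14.8 CPM in control. Npnt, a ligand of the integrin made by Itga8, had 623 CPM in ALI and 1150 CPM in control, and Ntn4, which binds laminin, had 86.6 CPM in ALI and 164 CPM in control, both called lower. Without control 5, 4 genes of this list were higher and 7 lower, beside 23.2% and 21.0% of the genes then tested.

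No fibril-associated chain was called over all 12 samples. Col14a1, which binds type I fibrils, ranged from 43.0 to 92.7 CPM (median 66.7) in ALI and from 37.8 to 61.7 CPM (median 49.4) in control, a log2 fold change of 0.43 ± 0.17 that did not pass (adjusted p = 0.0652). It passed on leaving out ALI 4 (adjusted p = 0.0166), ALI 6 or control 1. Col12a1, of the same subfamily, ranged from 32.9 to 62.7 CPM (median 50.1) in ALI and from 36.6 to 112 CPM (median 74.1) in control, and its log2 fold change of -0.58 ± 0.26 did not pass (adjusted p = 0.101). Without control 5, Col12a1 was called lower at a log2 fold change of -0.72 (adjusted p = 0.0226). Col16a1 had 55.3 ± 7.63 CPM in ALI and 52.3 ± 8.67 CPM in control (adjusted p = 0.643), and Col20a1 had 4.12 ± 1.06 CPM in ALI and 5.84 ± 1.18 CPM in control (adjusted p = 0.0736). Col20a1 was called lower on leaving out ALI 3 (adjusted p = 0.0436) or control 4 (adjusted p = 0.0464). All 4 genes overlapped between groups. The other 5 members had too few counts for the test. Col22a1, a chain of tissue junctions, had 61 counts in ALI and 19 in control, with an adjusted p of 0.0397 when no filter was used. Col9a3 had 58 counts in ALI and 45 in control, Col19a1 had 8 in ALI and 2 in control, Col9a2 had 4 in ALI and 1 in control, and Col9a1 had 2 in ALI and 0 in control.

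Among the chains outside these classes, 1 of the 2 multiplexins of basement membrane zones was called higher. Col15a1 ranged from 26.8 to 53.2 CPM (median 32.4) in ALI and from 9.52 to 15.3 CPM (median 13.3) in control, with no overlap and a log2 fold change of 1.47 ± 0.18 (adjusted p = 1.54e-05). Its highest value, 53.2 CPM, was in ALI 2, and without ALI 2 and control 5 the log2 fold change was 1.24 (adjusted p = 1.19e-06). Col18a1, whose end fragment is endostatin, had 132 ± 18.2 CPM in ALI and 122 ± 22.5 CPM in control and did not pass (adjusted p = 0.537). Its log2 fold change was 0.11, and 0.01 without control 5.

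Of the 3 tested transmembrane chains 2 were lower. Col17a1, the hemidesmosome collagen of epithelial cells, ranged from 0.887 to 2.66 CPM (median 1.55) in ALI and from 3.99 to 6.24 CPM (median 5.43) in control, a log2 fold change of -1.68 ± 0.24 (adjusted p = 7.10e-05). Col13a1, found at cell adhesion sites, ranged from 28.9 to 47.0 CPM (median 38.3) in ALI and from 63.0 to 92.3 CPM (median 78.9) in control, a log2 fold change of -1.06 ± 0.12 (adjusted p = 7.35e-06). Neither gene's groups overlapped, and leaving out control 5 gave -1.68 for Col17a1 and -1.12 for Col13a1. Col23a1 ranged from 85.7 to 146 CPM (median 113) in ALI and from 91.5 to 155 CPM (median 142) in control and did not pass (adjusted p = 0.235). Col25a1, the fourth transmembrane chain, had 50 counts in ALI and 53 in control and was not tested.

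Type VI collagen forms beaded filaments near cell surfaces. Col6a3 ranged from 252 to 370 CPM (median 295) in ALI and from 109 to 243 CPM (median 228) in control, without overlap (log2 fold change 0.51 ± 0.17, adjusted p = 0.0277). Col6a1 ranged from 326 to 502 CPM (median 437) in ALI and from 202 to 386 CPM (median 344) in control, with overlap (log2 fold change 0.39 ± 0.14, adjusted p = 0.0432). Col6a2 ranged from 223 to 411 CPM (median 314) in ALI and from 163 to 326 CPM (median 294) in control and did not pass (adjusted p = 0.392). Control 5 held the lowest control value of all 3 chains, and without it the log2 fold changes were 0.37 for Col6a3, 0.29 for Col6a1 and 0.07 for Col6a2, with the first of these still called at an adjusted p of 0.00361 and Col6a1 at 0.0220. The Col6a1 call was lost in 9 of 12 fits that leave out 1 library, all but those without ALI 4, control 2 or control 5. Other scalings (DESeq2 size factors, upper quartile, library size alone) and a block for replicate number lost the Col6a1 call as well. The Col6a3 call was lost on leaving out ALI 1 or ALI 3, and with upper-quartile scaling or library size alone. Without both ALI 2 and control 5, Col6a3 stayed called (adjusted p = 0.00745). Col6a1 did not, with a log2 fold change of 0.23 (adjusted p = 0.0522). Col6a5 had 3.27 ± 5.23 CPM in ALI and 2.26 ± 0.390 CPM in control, and Col6a6 had 3.31 ± 2.85 CPM in ALI and 2.05 ± 0.901 CPM in control. The wide ALI spread came from ALI 2, with 13.8 CPM of Col6a5 and 8.75 CPM of Col6a6. Without ALI 2 and control 5, the Col6a5 log2 fold change was -0.97 (adjusted p = 0.0539), against 0.53 over all samples, and neither was called. Col6a4 had 1.23 ± 0.488 CPM in ALI and 2.03 ± 0.919 CPM in control, and was called lower only without control 5 (adjusted p = 0.0317) or without both libraries (adjusted p = 0.0129).

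The remaining chains gave no call. Col7a1, the anchoring fibril chain, had 7.34 ± 1.64 CPM in ALI and 8.30 ± 2.0 CPM in control (adjusted p = 0.487). Of the short-chain network, Col8a1 had 13.7 ± 2.08 CPM in ALI and 14 ± 2.05 CPM in control (adjusted p = 0.871), and Col8a2 had 10.6 ± 3.69 CPM in ALI and 15 ± 3.18 CPM in control (adjusted p = 0.0862). Col8a2 was called lower on leaving out ALI 3 (adjusted p = 0.0245). Col28a1 had 1.53 ± 0.709 CPM in ALI and 1.13 ± 0.450 CPM in control (adjusted p = 0.389). Col10a1, the hypertrophic cartilage chain, had 10 counts in ALI and 23 in control, of which 17 were in control 5, and Col26a1 had 28 counts in ALI and 20 in control.

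The order of levels between chains was compared in CPM per kb of deposited gene length. In ALI the order was Col4a1 at 271 ± 20.4, Col3a1 at 212 ± 17.5, Col1a1 at 207 ± 28.6, Col4a2 at 178 ± 11.0, Col1a2 at 116 ± 9.45 and Col6a1 at 97.7 ± 13.2. In control it was Col4a1 at 193 ± 50.7, Col4a2 at 158 ± 38.1, Col6a1 at 74.4 ± 14.5, Col1a1 at 70.6 ± 15.6, Col3a1 at 62.3 ± 14.5 and Col1a2 at 47.5 ± 9.75. Col3a1 and Col1a1 lay within 1 SD of each other in both groups. In control so did Col4a1 and Col4a2, Col6a1 and Col1a1, and Col6a1 and Col3a1. The order depends on the length used, since the deposited length is the union of all exons and for Col1a2 it is 12426 bases, against 5348 for the longest coding transcript. With the latter length Col3a1 led in ALI at 373 CPM per kb, ahead of Col4a1 at 306, Col1a2 at 270 and Col1a1 at 229, while Col4a1 still led in control at 218.

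Ratios between chains in the same library do not depend on library scaling, and their relative difference between groups does not depend on the length used. Their size does depend on it, and the values below are per kb of deposited gene length. Per kb of the longest coding transcript, the Col1a1 to Col1a2 ratio was 0.761 to 0.946 in ALI and 0.672 to 0.729 in control. The Col5a1 to Col5a2 ratio ran from 0.570 to 0.691 (median 0.600) in ALI and from 0.815 to 1.0 (median 0.897) in control, without overlap. The main form of type V collagen holds both chains. The Col1a1 to Col1a2 ratio ran from 1.60 to 1.99 (median 1.78) in ALI and from 1.41 to 1.53 (median 1.48) in control, again without overlap. Control 5 had the lowest type I ratio of the controls, at 1.41, and lay inside their range for type V, at 0.886. The Col3a1 to Col1a1 ratio (1.03 ± 0.0759 in ALI and 0.884 ± 0.0758 in control) and the Col6a3 to Col6a1 ratio (0.257 ± 0.0390 in ALI and 0.233 ± 0.0256 in control) overlapped. The Col6a1 to Col6a2 ratio had 2.59 ± 0.180 in ALI and 2.24 ± 0.103 in control and overlapped as well.

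**Figure D4:**
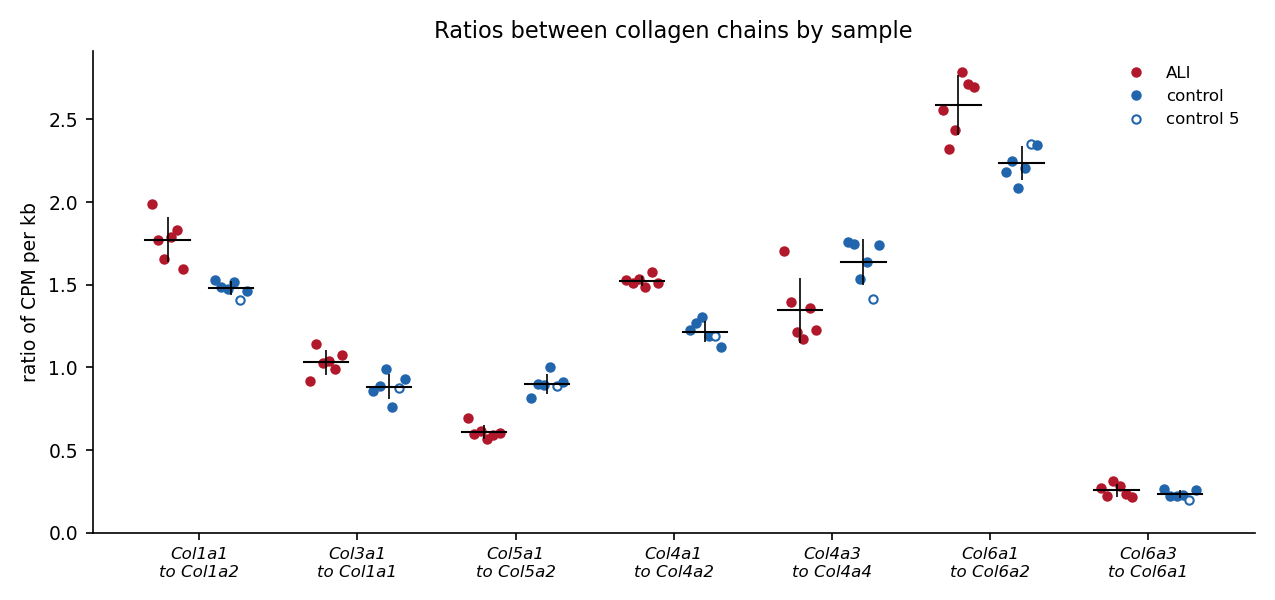
Ratios between collagen chains in each sample, from CPM per kb of deposited gene length, with ALI left of control. Points are samples, horizontal bars are means with SD, and the open circle is control 5. The ratios Col1a1 to Col1a2, Col5a1 to Col5a2 and Col4a1 to Col4a2 show no overlap between ALI and control.

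Genes that modify, process and link collagen chains were called in both directions, as were tested genes at large (18.9% higher and 17.7% lower). Of 22 tested genes for making and folding, 9 were higher and 5 lower, with a median of 0.17. Colgalt1, which adds galactose to hydroxylysine, had 180 ± 14.3 CPM in ALI and 104 ± 10.3 CPM in control (log2 fold change 0.79, adjusted p = 4.91e-06), and its relative Colgalt2 was lower at 16.1 CPM in ALI and 36.7 CPM in control. P4ha3, a prolyl hydroxylase subunit, had 10.4 ± 2.09 CPM in ALI and 3.44 ± 0.687 CPM in control (log2 fold change 1.59, adjusted p = 6.14e-06). Creb3l1, a transcription factor of collagen-secreting cells, had 44.5 CPM in ALI and 23.5 CPM in control, and Plod3, a lysyl hydroxylase, 158 CPM in ALI and 95.8 CPM in control, both called higher. Serpinh1, the collagen chaperone, had 310 CPM in ALI and 235 CPM in control and was not called.

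Of 7 tested procollagen processing genes 2 were higher and 3 lower, beside 18.9% and 17.7% over all tested genes. Adamts2, which removes the amino-terminal propeptide, had 186 ± 33.2 CPM in ALI and 89.0 ± 10.7 CPM in control (log2 fold change 1.06, adjusted p = 1.20e-05), and Bmp1, which removes the carboxy-terminal one, had 96.3 CPM in ALI and 63.9 CPM in control. Both enhancers of that second cleavage were lower. Pcolce2 had 110 ± 45 CPM in ALI and 330 ± 46.7 CPM in control (log2 fold change -1.59, adjusted p = 0.000111), and Pcolce had 105 CPM in ALI and 152 CPM in control. Of 7 crosslinking genes 2 were higher and 1 lower, beside the same 18.9% and 17.7%. Lox, which starts fibril crosslinks, had 198 ± 31.6 CPM in ALI and 78.4 ± 17.8 CPM in control (log2 fold change 1.34, adjusted p = 7.24e-06). Loxl2, which acts on type IV collagen among others, had 54.7 CPM in ALI and 37.1 CPM in control (adjusted p = 0.00309). Pxdn, which crosslinks type IV collagen, was lower at 221 ± 14.3 CPM in ALI and 290 ± 62.8 CPM in control (adjusted p = 0.0409). The Pxdn call was lost in 10 of the 12 fits that leave out 1 library, all but those without ALI 1 or control 5. Library size alone and the block for replicate number lost it as well.

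All 7 tested genes for enzymes that cut collagen were called higher, with a median log2 fold change of 0.91. Ctsk, a lysosomal collagenase, had 323 ± 105 CPM in ALI and 21.1 ± 3.79 CPM in control (log2 fold change 3.94, adjusted p = 4.33e-08). Mmp14, a membrane collagenase, had 402 ± 76.0 CPM in ALI and 82.1 ± 21.5 CPM in control, Mmp8, the neutrophil collagenase, 14.3 CPM in ALI and 2.71 CPM in control, and Mmp2, a gelatinase, 289 CPM in ALI and 187 CPM in control. Macrophage markers moved the same way, with 9 of 10 called higher, none at 0 and a summed level of 1154 to 1793 CPM in ALI and 272 to 401 CPM in control, and so did 6 of 7 tested neutrophil markers. Their part in these levels was not tested. Of 12 collagen receptor and uptake genes, 3 were higher and 2 lower, close to the 18.9% and 17.7% over all tested genes. Lair1, an inhibitory collagen receptor of leukocytes, had 35.2 CPM in ALI and 7.23 CPM in control, and Mrc1, the macrophage mannose receptor, which also binds collagen, had 189 CPM in ALI and 77.0 CPM in control. Itga1, a chain of a collagen-binding integrin, was lower at 266 CPM in ALI and 403 CPM in control, and Gp6, the platelet collagen receptor, at 0.999 CPM in ALI and 1.91 CPM in control. Without control 5, 3 genes of this list were higher and 4 lower, beside 23.2% and 21.0% of the genes then tested.

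Of 14 tested collagen-binding proteoglycans and fibril partners 3 were higher and 4 lower, beside 18.9% and 17.7% over all tested genes. Fn1, the fibronectin gene, had 1710 ± 268 CPM in ALI and 692 ± 184 CPM in control (log2 fold change 1.31, adjusted p = 7.22e-05), and Dpt, which binds fibrils, had 170 CPM in ALI and 110 CPM in control. Tnxb, the tenascin-X gene, was lower at 79.1 ± 15.5 CPM in ALI and 225 ± 57.4 CPM in control (log2 fold change -1.51, adjusted p = 1.97e-05), as was Prelp at 193 CPM in ALI and 486 CPM in control (log2 fold change -1.33, adjusted p = 0.000189). Decorin (Dcn), with 125 CPM in ALI and 86.7 CPM in control, and biglycan (Bgn), with 1252 CPM in ALI and 1171 CPM in control, were not called.

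**Figure D5:**
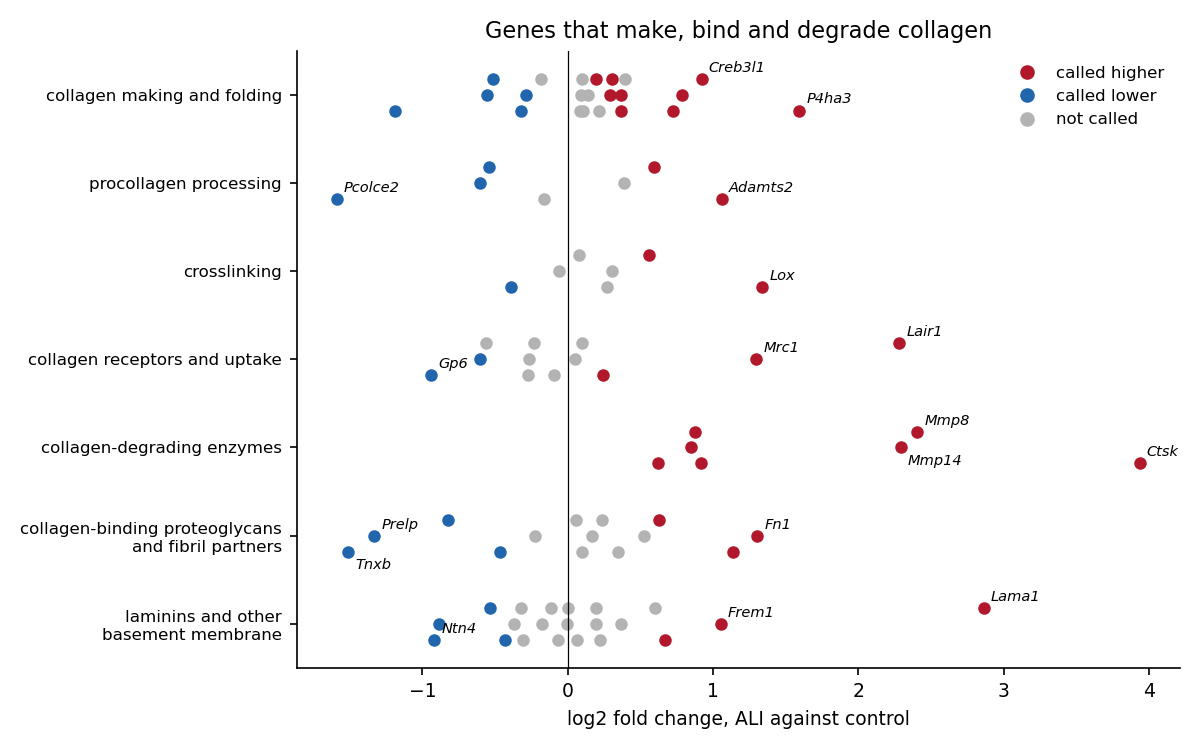
Log2 fold change, ALI against control, of genes that make, process, link, bind and degrade collagen, by list and coloured by call. Each point is 1 tested gene. All 7 collagen-degrading enzymes lie to the right of 0, and the other lists hold calls on both sides.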

How the data were processed

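Lung RNA was extracted with TRIzol, prepared with an NEBNext Ultra kit and sequenced on a NovaSeq instrument, per the labels' protocols. The values the authors deposited are raw whole-number counts, 1 per gene and sample. Per the submitters' processing notes, the tools were featureCounts, HISAT2 and fastp and the build was GRCm38 (mm10). Versions, the strand setting and the treatment of reads matching several genes are not given in the sources used here. Counts of overlapping and paralogous genes are therefore uncertain. No collagen chain gene shares 20% or more of its exon bases with another gene. Coordinates were taken from GENCODE M21 by gene ID, since most deposited starts of the chains differ from it (3 of 44 equal), and sequences from RefSeq (GRCm38.p6).

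Samples were grouped by the treatment label. No 2 samples of a group were alike within sampling noise: chi-square over degrees of freedom was 6.91 to 239 in 30 pairs, for genes whose 2 counts sum to at least 20. The test was edgeR's quasi-likelihood F test (version 4.0.16 in R 4.3.3, robust option) after TMM scaling and filterByExpr with its minimum count of 10. Calls are at an adjusted p under 0.05 (Benjamini-Hochberg, 16185 genes). CPM use TMM-scaled library sizes. Shares and ratios are descriptions without a test. Intervals were computed from counts summed over each group, so they cover counting error only and leave out sample-to-sample spread. Reads carry no molecular identifiers.

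Members, classes and gene lists were chosen with earlier results of these data known, so lists are described by counts and medians. All members get a level. Sample ranges, or mean ± SD, are given for the 3 chains of each class with the highest level per kb. The same holds for up to 3 with the largest called change and up to 2 of the opposite direction. Others with a library that stood apart are given likewise. Outside the members, up to 4 called genes of each list with the smallest p and a mean of at least 1 CPM were named. Colgalt2, Serpinh1, Dcn, Bgn, Tnc, Acta2, Postn and Cthrc1 were named after their values were seen. One gene that resembled a member is not reported here. Alternatives were DESeq2 1.42.0, limma-voom (limma 3.58.1), other scalings and filters, a replicate block, a fit with 1 surrogate variable from sva 3.50.0, and leaving out libraries. The longest coding transcript as gene length and the counts by class without control 5 were chosen after seeing the data.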

Additional observations from a re-analysis of the deposited data

Results flagged for a closer look

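Among the 150 groups of 6 values examined, 24 had a highest or lowest sample separated from the rest by more than Dixon's 95% critical value allows, which chance gives in about 1 in 20 groups. Of the 24, 18 were in control 5 and 3 in ALI 2, so most of these departures share a library.

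Control 5 was the lowest control for Col4a1 (735 CPM, others 1421 to 1769), Col4a2 (547 CPM, others 1065 to 1233), Col5a1 (43.1 CPM, others 78.3 to 88.4), Col16a1 (35.2 CPM), Col18a1 (78.7 CPM), Col6a1 (202 CPM), Col6a2 (163 CPM) and Col6a3 (109 CPM). It was also lowest in the share of all counts taken by collagen chains (0.309%), by basement membrane chains (0.137%), by fibrillar chains (0.0968%) and by the other chains (0.0653%). Outside the chains it was lowest for Adamts2 (67.5 CPM), Itga1 (254 CPM), Pcolce2 (238 CPM), Prelp (303 CPM) and Pxdn (165 CPM).

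ALI 2 was the highest ALI library for Col15a1 (53.2 CPM, others 26.8 to 36.4), Col6a5 (13.8 CPM, others 0.359 to 2.58) and Col6a6 (8.75 CPM, others 0.899 to 3.52). Prelp was highest in ALI 3 among ALI libraries, at 320 CPM against 129 to 193 CPM in the others. The Col5a1 to Col5a2 ratio per length was highest in ALI 1, at 0.691 against 0.570 to 0.614 in the other ALI libraries, and still below every control. The Col4a5 to Col4a6 ratio per length stood apart in ALI 4 (600.2, others 103 to 188) and in control 5 (347, others 68.6 to 97.2), both with few counts of Col4a6.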

How the results depend on the processing

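No result changed sign while called. Of the 34 tested chains, 21 kept their side of the threshold under all 23 alternatives, among them the 7 fibrillar chains called higher, Col27a1, Col15a1, Col13a1 and Col17a1, and 13 changed side under at least 1. The count of chains called lower, 5, was 11 with limma-voom, 9 with 1 surrogate variable, 9 without control 5 and ALI 2, 3 with library size alone, and 3 to 9 on leaving out each library in turn, the 9 without control 5 and the 3 without ALI 2, 4, 5 or 6 or control 1, 2 or 6. The cause was not tested. Only 1 of 6 same-numbered pairs of samples had deviations correlated above 0.1 (r from -0.268 to 0.266). A pairing by replicate number was thus not seen, but low correlations cannot exclude it. With the replicate block 9 chains were higher and 3 lower, and 2639 genes higher and 2183 lower over all genes. Chains called higher numbered 8 to 11 on leaving out each library in turn and 13 with DESeq2. Depth limits the 10 chains that were not tested. Of these, Col11a1 and Col22a1 passed when the filter was dropped, and for the others a difference was not detectable at this depth.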

Other observations

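Within groups, after each group's mean was subtracted, genes outside the collagen chains whose log2 CPM most resembled Col1a1 over the 12 samples included Dhx29 (r = 0.978) and Supt16 (r = 0.966). These values share libraries and the low collagen level of control 5. Without control 5 both were again among the leading 3 genes, at 0.940 for Dhx29 and 0.944 for Supt16. For Col3a1 and Col4a1 the leading gene over all 12 samples was Ttyh3 (r = 0.955 with Col3a1 and 0.963 with Col4a1), and it was no longer among the leading 3 for either chain without control 5, where Micu2 led for Col3a1 (r = 0.909) and Lsm12 for Col4a1 (r = 0.888). The correlations are descriptions with no test.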
